A study of Mus musculus with 12 samples.

Results

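The keratin genes of the mouse were followed across 3 sorted skin cell fractions, 2 genotypes and 2 sets of samples. The genes were chosen by symbol, as every gene named Krt followed by a number with an optional letter that had at least 1 probe set mapped to a single symbol. This gave 48 keratins, represented by 61 probe sets, out of 18193 genes. Of the 48 keratins, 25 encode type I and 23 type II proteins, and in the RefSeq annotation 24 lie on chromosome 11 and 24 on chromosome 15. One further probe set was shared by Krt17 and Krt14 and was left out. RefSeq lists 53 keratin genes under this rule, and the other 5 (Krt9, Krt39, Krt40, Krt87 and Krt90) were not analysed here.

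Keratins are the intermediate filament proteins of epithelial cells. A filament is built from pairs of a type I and a type II keratin, and each layer of the skin uses its own pairs. Dividing basal cells make Krt5 and Krt14, epidermal cells that leave the basal layer switch to Krt1 and Krt10, and the growing hair follicle makes further keratins for the companion layer, the inner root sheath (the mould around the hair) and the hair shaft itself. Keratin transcripts are therefore commonly used to recognise skin compartments and the stage of the hair cycle.

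Expression was measured on 12 Affymetrix arrays of cells sorted by flow cytometry from back skin of female mice aged 72 to 74 days, of mixed C57BL/6 and CD1 descent. At this age follicles leave their second telogen (rest) for anagen (growth). The genotypes were TßRII-Het (Het) and TßRII-cKO (cKO), heterozygous and conditionally deleted for the type II TGF-beta receptor. The sources used here do not give the driver of the deletion. All groups carried the Rosa26-YFP reporter used in the sort, with P-cadherin and CD34 as the other sort markers. Each genotype gave 3 fractions in set 1 and in set 2, namely hair germ (HG), bulge and total keratinocytes. Both HG and bulge hold what are called hair follicle stem cells (HFSCs), from the base and the side of the resting follicle. The labels call HG and bulge cells quiescent in set 1 in both genotypes, activated in set 2 of Het, and aberrantly quiescent in set 2 of cKO. Total keratinocytes carry no such state. The 12 arrays form 10 groups, of which 8 hold a single array and 2, the total keratinocytes of Het and those of cKO, hold 2 each. Nothing says whether fractions came from the same mice, so p-values measure only the spread between these arrays.

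Values are log2 of the deposited signal, with signals under 20.7 set to that value, so that the floor on the log2 scale is 4.37. A difference of 1 on this scale is a doubling, and a value at the floor is only an upper limit on the level. A gene was tested when its signal passed 84.7 (6.40 on the log2 scale), the median of all arrays, on at least 2 arrays of a fit. Where fewer than 2 arrays outside the higher group of a comparison passed, the gene was tested only through the group in which it is higher, and this is said beside it. All differences and adjusted p-values are from limma with Benjamini-Hochberg adjustment over all genes tested, two-sided, and a keratin is said to have risen or fallen when the adjusted p was under 0.05. In these bulk samples fewer cells of a type and less RNA per cell cannot be told apart. Where 4 values are given for a fraction, they are in the order Het set 1, cKO set 1, Het set 2 and cKO set 2.

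As a check of the fractions, Cd34, the bulge sort marker, was 14.42 to 14.79 in bulge and 7.65 to 8.69 in HG, and Cdh3, which encodes P-cadherin, was 8.02 to 9.10 in bulge and 9.22 to 10.61 in HG. Markers of other cells differed between fractions. Of all genes tested, 8.44% were higher and 10.7% lower in HG than in bulge at an adjusted p under 0.05. All 11 fibroblast genes listed were higher in bulge than in HG (adjusted p under 0.05), with summed signals of 147075 to 320866 against 25552 to 36832, and 7 of 8 tested melanocyte genes were higher and 1 lower in HG than in bulge, with summed signals of 12134 to 21327 against 7233 to 9462. The 7 milk protein genes listed were all above the median signal in cKO total keratinocytes of set 1, with at most 3 of them on any other array. Merkel cell genes were above the median on at most 1 of 9 on any array. The part of these cells in the results below was not tested.

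Most keratins gave a signal somewhere in these samples, and 17 of the 48 exceeded the median signal on all 12 arrays. The filter was passed by 39 keratins on 12 arrays and by 37 on the 8 HG and bulge arrays. Of the 9 that were not tested on 12 arrays, Krt82 and Krt76, a shaft and an oral keratin, were at the floor on every array. Krt20, Krt72 and Krt84 stayed below the median on every array, with highest values of 6.30, 6.16 and 6.31, and Krt12, Krt13, Krt19 and Krt6b passed it on a single array. Just inside the filter were Krt222 and Krt26, each above the median on 2 arrays, with a second highest value of 6.63 and 6.46. The heat map of all tested keratins shows these patterns at once.

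**Figure D1:**
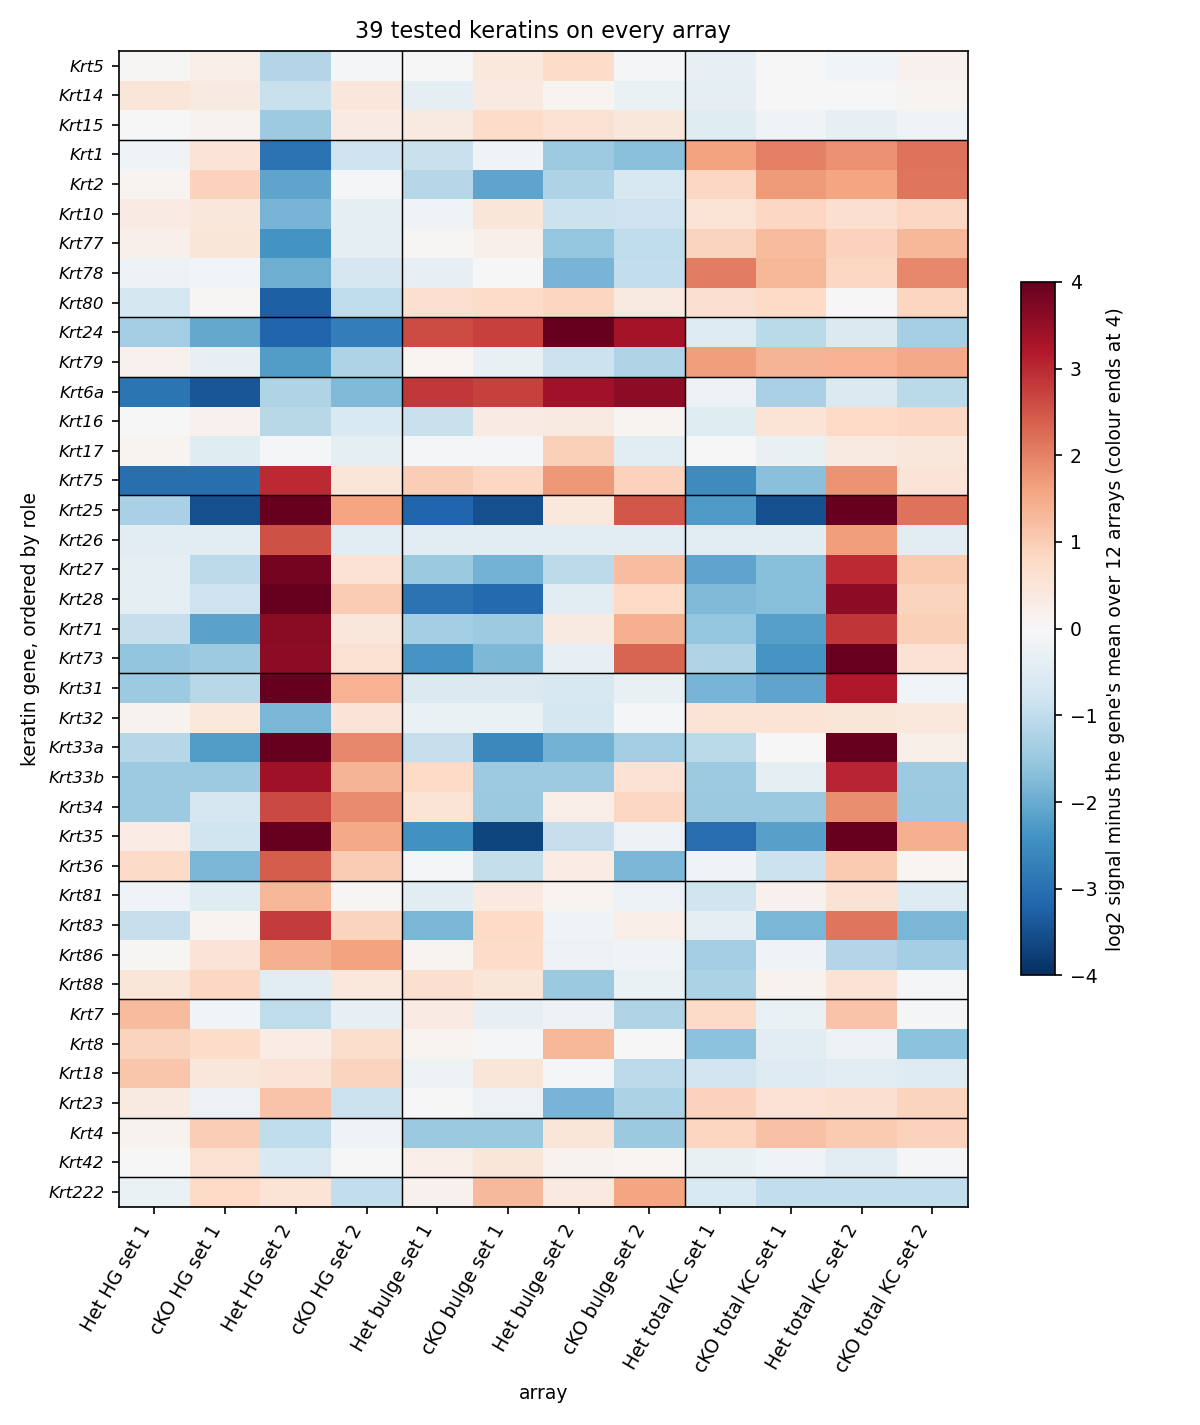
Heat map of the 39 tested keratins (rows, ordered by role and separated by lines) on the 12 arrays (columns), coloured by log2 signal minus the gene's own mean over the 12 arrays. Krt24 and Krt6a stand out on the 4 bulge arrays. The suprabasal keratins Krt1, Krt77 and Krt78 are highest on the 4 total keratinocyte arrays. Krt25, Krt28 and Krt35 stand out on the Het HG and Het total keratinocyte arrays of set 2.

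Of the 3 basal keratins, Krt5 and Krt14 were called between no fractions and Krt15 was called between bulge and total keratinocytes. Krt5, the type II partner of the basal layer, read 15.24, 15.46, 14.03 and 15.14 in HG, 15.19, 15.59, 15.93 and 15.14 in bulge and 14.87, 15.19, 15.08 and 15.35 in total keratinocytes. The fitted difference between HG and total keratinocytes was -0.16 for Krt5 (95% interval -0.77 to 0.46) and 0.17 for its partner Krt14 (95% interval -0.41 to 0.75). The Het HG array of set 2 was the lowest of all 12 for Krt5, Krt14 and Krt15, at 14.03, 14.25 and 14.28. A second Krt14 probe set, at a lower signal (mean 8.51), gave 1.49 for HG minus bulge where the one used (mean 15.13) gave 0.14. Another, nearly as bright as the one used (mean 14.98), gave 0.32. The size for Krt14 thus depends on the probe set, mainly through the dim one.

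Krt15, a type I basal keratin also known as a marker of bulge stem cells, was higher in bulge than in total keratinocytes. It read 16.07, 16.45, 16.33 and 16.16 in bulge and 15.24, 15.57, 15.38 and 15.57 in total keratinocytes, and these groups did not overlap. The difference was 0.81 (SE 0.27, adjusted p = 0.0474), higher in 4 of 4 conditions. It was past the threshold in only 4 of 16 alternative settings, and after quantile normalization it was 0.08 (adjusted p = 0.836). The median of the 3 basal keratins turned sign under that normalization, from 0.34 to -0.18 for bulge minus total keratinocytes and from 0.03 to -0.51 for HG minus total keratinocytes. In HG, Krt15 read 15.70, 15.85, 14.28 and 16.03, and its difference from bulge was -0.79 (95% interval -1.51 to -0.06, adjusted p = 0.123).

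The keratins of the suprabasal epidermis separated both stem cell fractions from total keratinocytes. All 6 of them (Krt1, Krt2, Krt10, Krt77, Krt78 and Krt80) fell in HG relative to total keratinocytes, and 5 fell in bulge, the exception being Krt80. Of all 39 keratins tested, 9 were lower and 2 higher in HG than in total keratinocytes, where the background over the 12749 genes tested was 5.72% lower and 5.11% higher. In bulge 9 were lower and 5 higher, against 10.5% and 13.8% of all genes. As shares of the keratins, 23.1% were lower in each stem cell fraction, and 5.13% were higher in HG and 12.8% in bulge. The 2 comparisons share the 4 total keratinocyte arrays. The count of 11 in HG was 4 without the Het arrays of set 1, without the cKO arrays of set 2 or without cKO total keratinocytes of set 2, 6 without Het total keratinocytes of set 1, and 7 without the cKO arrays of set 1 or the Het total keratinocyte array of set 2. The count of 14 in bulge was 8 without the cKO arrays of set 2 and 7 without cKO total keratinocytes of set 2.

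**Figure D2:**
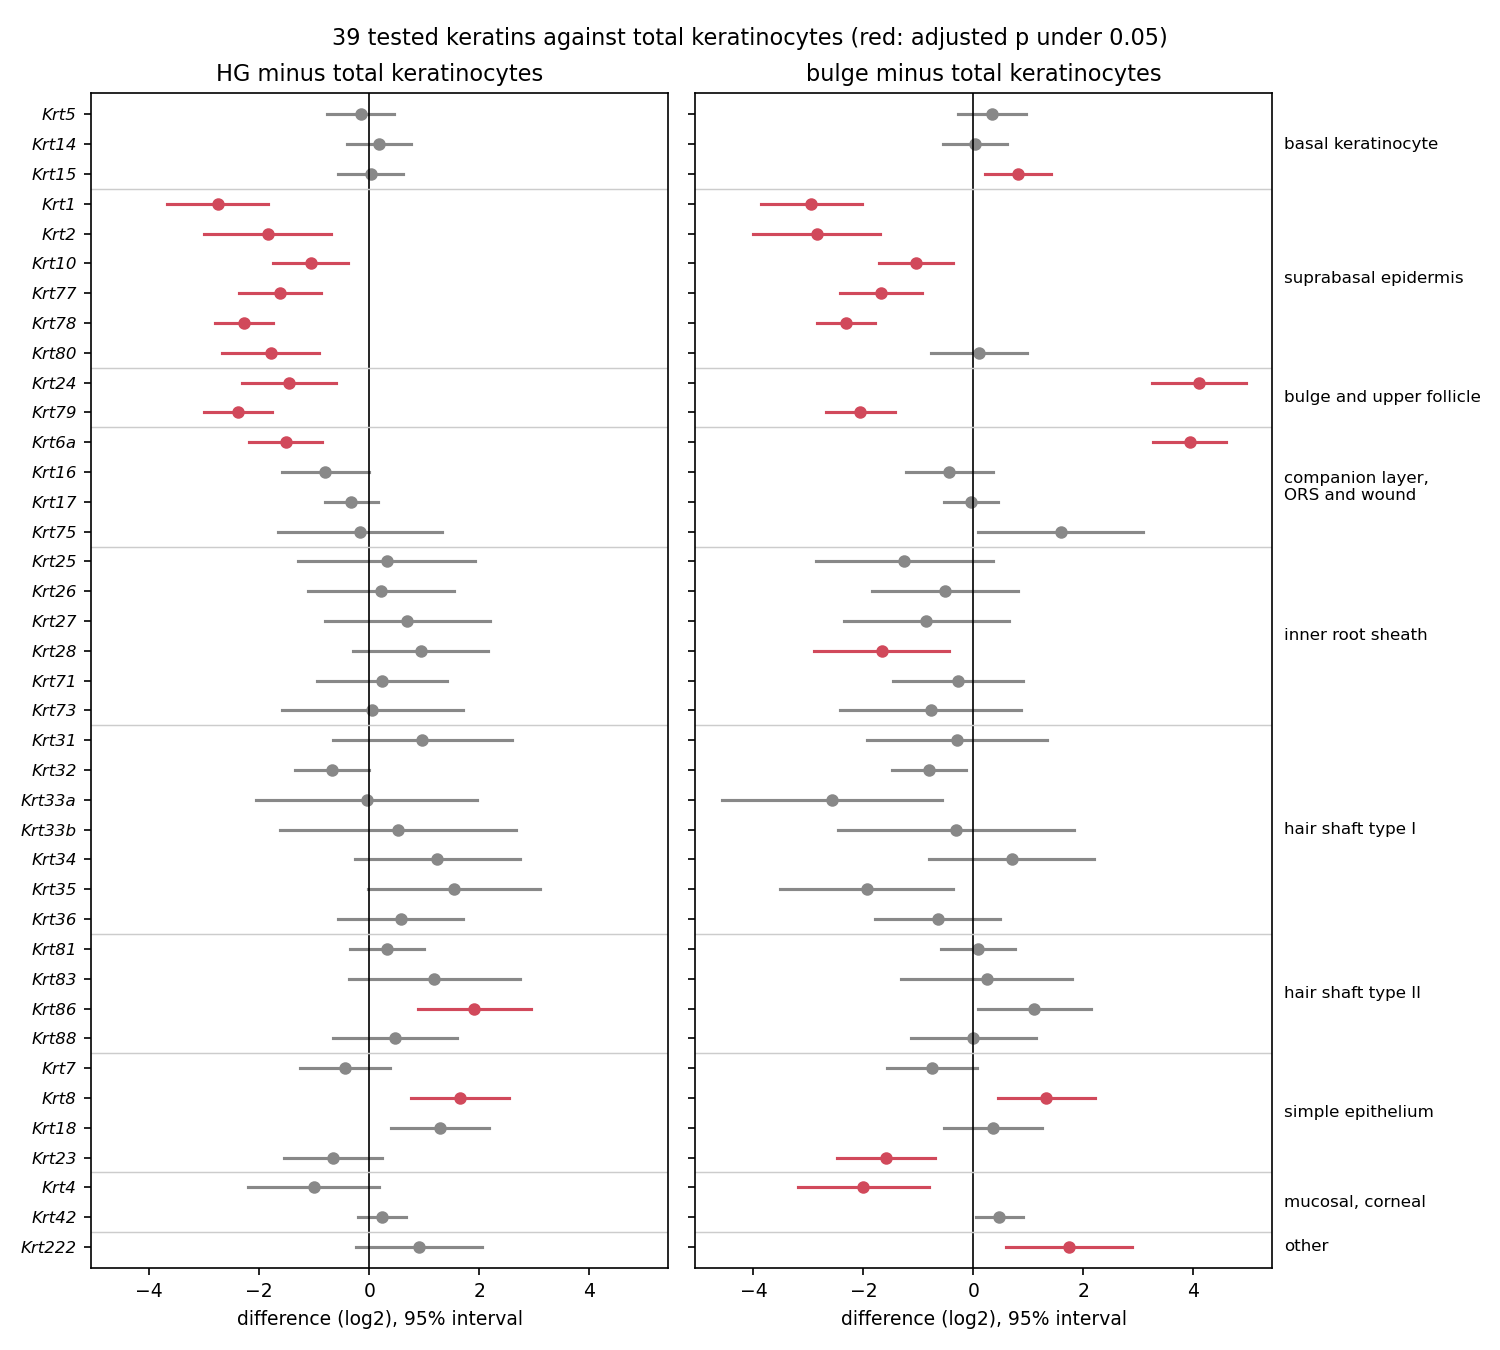
Differences in log2 signal (x axis) of the 39 tested keratins (y axis, grouped by role at the right) between HG and total keratinocytes (left) and between bulge and total keratinocytes (right), with 95% intervals from limma; red marks an adjusted p under 0.05. The suprabasal keratins lie left of 0 in both panels except Krt80 in bulge, and Krt24 and Krt6a lie left of 0 in HG and right of 0 in bulge.

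Krt1, the type II keratin of the spinous layer, read 12.47, 13.12, 9.66 and 11.79 in HG, 11.71, 12.45, 11.17 and 10.93 in bulge and 14.22, 14.62, 14.43 and 14.78 in total keratinocytes. The 4 total keratinocyte values lay above all 8 others, and the Het HG array of set 2 was the lowest. The differences were -2.75 in HG (SE 0.42, adjusted p = 0.00322) and -2.95 in bulge (SE 0.42, adjusted p = 3.11e-04). Krt10, its type I partner, fell by 1.07 in HG (SE 0.31, adjusted p = 0.0471) and by 1.04 in bulge (SE 0.31, adjusted p = 0.0285). The call for Krt10 in HG was kept in only 3 of 16 alternative settings, and that in bulge in 9 of 16.

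Krt77 and Krt78 are further type II keratins of the epidermis. Krt77 read 14.18, 14.47, 11.58 and 13.59 in HG, 14.01, 14.16, 12.43 and 12.96 in bulge and 14.87, 15.24, 14.89 and 15.30 in total keratinocytes. Krt78 read 8.87, 8.99, 7.14 and 8.41 in HG and 8.78, 9.11, 7.23 and 8.11 in bulge. In total keratinocytes Krt78 read 11.13, 10.44, 9.93 and 11.01. For both genes every total keratinocyte array lay above every stem cell array. Krt77 fell by 1.62 in HG (SE 0.35, adjusted p = 0.0141) and by 1.69 in bulge (SE 0.35, adjusted p = 0.00359). Krt78 fell by 2.27 (SE 0.24, adjusted p = 5.14e-04) and 2.32 (SE 0.24, adjusted p = 3.48e-05), and its 2 calls were kept in all 16 alternative settings.

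Krt2, a keratin of the upper spinous and granular layers, was dim and read 6.57, 7.39, 4.37 and 6.43 in HG, 5.32, 4.37, 5.22 and 5.82 in bulge and 7.30, 8.17, 8.06 and 8.61 in total keratinocytes. It was at the floor on the Het HG array of set 2 and the cKO bulge array of set 1, and its HG and total keratinocyte ranges overlapped by 1 value. The differences were -1.85 in HG (SE 0.53, adjusted p = 0.0447) and -2.85 in bulge (SE 0.53, adjusted p = 0.00197). The HG call was kept in 3 of 15 alternative settings.

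Krt80, a type II keratin of differentiating epithelial cells including the follicle, was the suprabasal keratin not called between bulge and total keratinocytes. It read 11.71, 12.44, 9.15 and 11.40 in HG, 13.08, 13.15, 13.27 and 12.76 in bulge and 13.03, 13.21, 12.38 and 13.25 in total keratinocytes. The bulge values lay within or close to the total keratinocyte range, with a difference of 0.10 (95% interval -0.78 to 0.98). HG was lower than both, by 1.79 against total keratinocytes (SE 0.40, adjusted p = 0.0175) and by 1.89 against bulge (SE 0.46, adjusted p = 0.0204). The fall against bulge was kept in 9 of 13 alternative settings and lost, among others, without the arrays of Het set 1 or those of cKO set 2. Of 12 genes listed for epidermal differentiation outside the keratin family, 7 were lower and 0 higher in HG than in total keratinocytes. Over all genes tested the shares were 5.72% and 5.11%. In bulge 7 of the 12 were lower and 0 higher, against 10.5% and 13.8% of all genes. The 12 differences ranged from -1.99 to 0.28 in HG and from -2.66 to 0.53 in bulge.

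Krt79, a type II keratin of the upper follicle (infundibulum) and of the ducts that open there, was lower in both stem cell fractions. It read 12.18, 11.69, 9.78 and 10.77 in HG, 12.08, 11.72, 11.14 and 10.81 in bulge and 13.67, 13.38, 13.40 and 13.52 in total keratinocytes, with no overlap between the latter and the former fractions. The falls were 2.39 in HG (SE 0.29, adjusted p = 9.44e-04) and 2.05 in bulge (SE 0.29, adjusted p = 2.65e-04), kept in all 16 alternative settings each. HG and bulge differed by -0.33 (95% interval -0.88 to 0.21).

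Between HG and bulge, 3 of 37 tested keratins were lower in HG and 2 higher, which is 8.11% and 5.41% of the keratins. The background over the 12589 genes tested was 10.7% lower and 8.44% higher, so keratins as a family were not called more often than genes at large. The count of 5 was 3 without the Het arrays of set 1 and 8 without those of set 2. Krt24, a type I keratin known from the bulge and from some differentiating epithelia, read 8.91, 8.24, 7.12 and 7.53 in HG, 12.89, 13.04, 14.51 and 13.61 in bulge and 9.76, 9.21, 9.72 and 8.96 in total keratinocytes. Every bulge array lay more than 3 log2 units above every other array. Krt24 fell by 5.56 in HG relative to bulge (SE 0.45, adjusted p = 7.39e-05), a 47.2-fold difference. It rose by 4.10 in bulge relative to total keratinocytes (SE 0.39, adjusted p = 2.03e-05). In HG it lay 1.46 below total keratinocytes (SE 0.39, adjusted p = 0.035), a call kept in 5 of 16 alternative settings.

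Krt6a, a type II keratin of the companion layer and the inner bulge layer that is also induced in wounds, had the same order. It read 8.19, 7.70, 9.91 and 9.34 in HG, 13.94, 13.84, 14.46 and 14.67 in bulge and 10.86, 9.79, 10.53 and 10.02 in total keratinocytes. HG lay 5.45 below bulge (SE 0.24, adjusted p = 3.66e-06), a 43.6-fold difference, and bulge lay 3.93 above total keratinocytes (SE 0.30, adjusted p = 3.95e-06). HG lay 1.52 below total keratinocytes (SE 0.30, adjusted p = 0.0107). The HG values of set 2 were above those of set 1 in both genotypes. Its 3 probe sets gave -5.45, -4.87 and -5.26 for HG minus bulge. Krt6b is a close copy of Krt6a, so some Krt6a signal could come from it, and its own probe set stayed at or below 6.59 on all arrays.

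**Figure D3:**
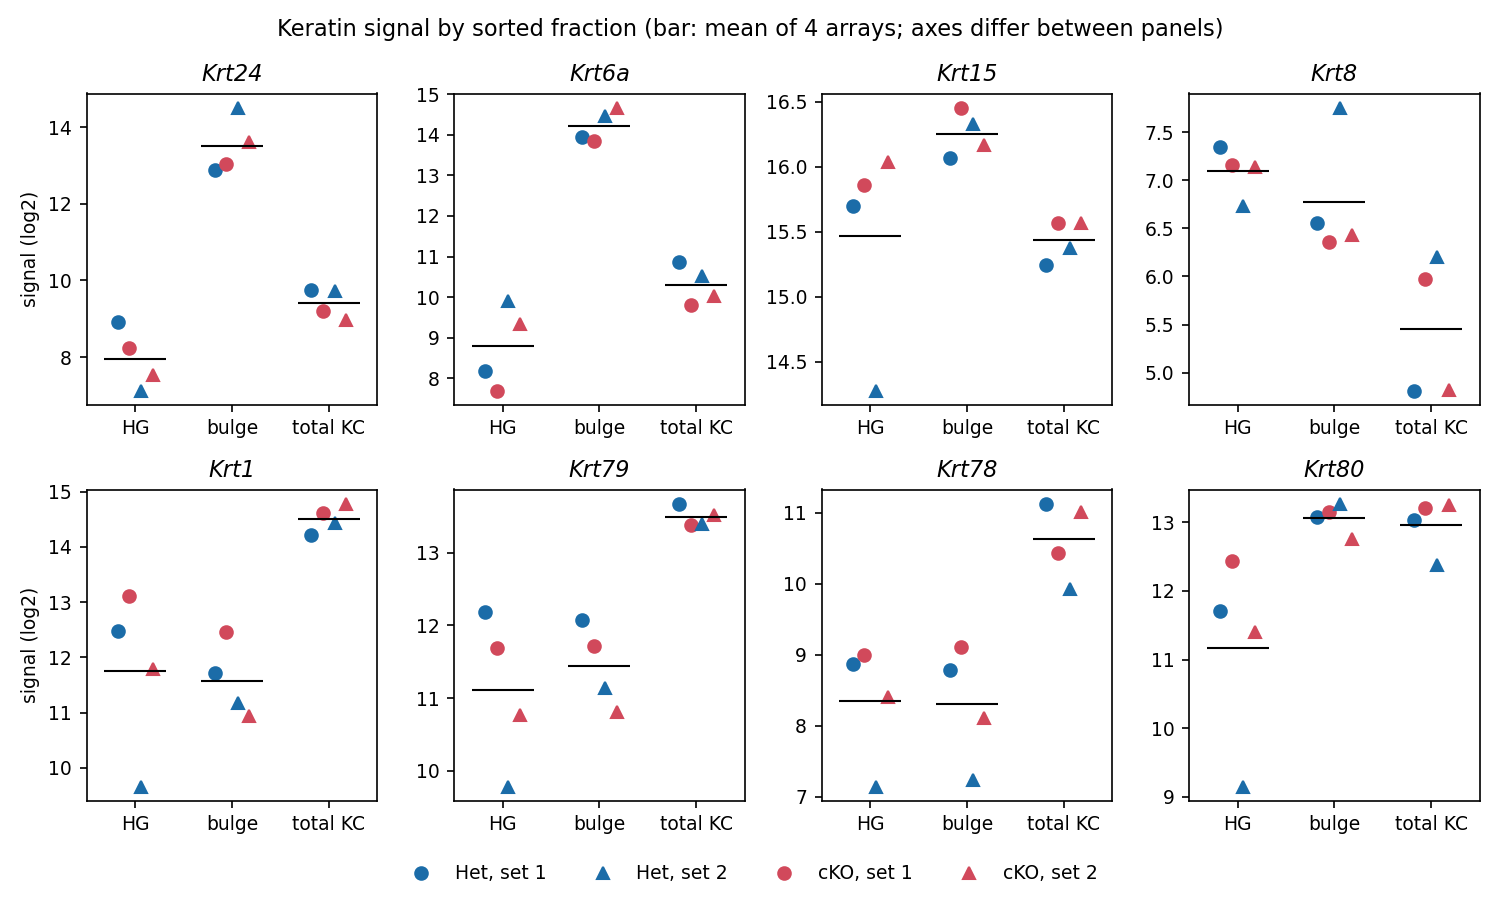
Log2 signal (y axis, scale differing between panels) of 8 keratins in HG, bulge and total keratinocytes (KC, x axis), with 1 point per array coloured by genotype and shaped by set, and a bar at the mean of the 4 arrays. Krt24 and Krt6a are highest on the 4 bulge arrays, and Krt1, Krt79 and Krt78 on the 4 total keratinocyte arrays.

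The other 3 tested keratins of the companion layer, outer root sheath and wound group were not called between fractions. Krt17, a keratin of the outer root sheath, lay between 12.26 and 13.68 on all 12 arrays, and its difference between HG and bulge was -0.28 (95% interval -0.76 to 0.20). Krt16, a type I partner of the wound keratins, differed by -0.80 between HG and total keratinocytes (adjusted p = 0.171). Krt75, the type II keratin of the companion layer, read 8.38, 8.21, 9.12 and 8.32 in bulge but was at the floor on both HG arrays of set 1. Its values by set are given with the inner root sheath keratins.

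Among keratins of simple epithelia, Krt8, the type II keratin of single-layered epithelia, was higher in both stem cell fractions than in total keratinocytes, and Krt23 was lower in bulge. Krt8 read 7.35, 7.16, 6.73 and 7.14 in HG, 6.56, 6.36, 7.76 and 6.43 in bulge and 4.81, 5.97, 6.20 and 4.82 in total keratinocytes. The rise was 1.65 in HG (SE 0.41, adjusted p = 0.0252) and 1.33 in bulge (SE 0.41, adjusted p = 0.0326). Each of these calls was kept in 6 of 15 alternative settings, and another probe set of Krt8 gave -0.47 for bulge minus total keratinocytes where the one used gave 1.33. Krt18, its type I partner, was 1.29 higher in HG (adjusted p = 0.062), which missed the threshold. Krt18 passed the filter on 3 of 4 HG arrays and 1 of the 8 others, so it was tested only through HG. Krt23 fell by 1.59 in bulge (SE 0.41, adjusted p = 0.0139), with 6.48 to 8.33 in bulge and 8.91 to 9.26 in total keratinocytes. Krt8, Krt18 and Krt20 are also made by Merkel cells. The listed Merkel cell genes outside the keratins were near the floor on all 12 arrays. Their mean log2 signal was 4.82 to 5.34 in HG, 4.75 to 5.21 in bulge and 4.48 to 4.82 in total keratinocytes. These means were mostly higher in the stem cell fractions, which is also the direction of the Krt8 rise. The part of Merkel cells in that rise was not tested.

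Of the remaining calls, Krt4, an oral and oesophageal keratin, read 4.37, 4.37, 6.34 and 4.37 in bulge and 6.72, 7.03, 6.92 and 6.80 in total keratinocytes. It was at the floor on 3 of 4 bulge arrays, and the fitted fall was 2.00 (SE 0.55, adjusted p = 0.0185), between -2.60 and -0.46 as a difference over 15 alternative settings, of which 8 kept the call. Krt4 passed the filter on the 4 total keratinocyte arrays and on 1 of the 8 others, and was thus tested only through the group where it is higher. Krt222, a distant type I relative, read 5.52, 6.63, 5.72 and 6.93 in bulge and 4.75, 4.37, 4.37 and 4.37 in total keratinocytes, where 3 of 4 arrays were at the floor. It rose by 1.73 in bulge (SE 0.53, adjusted p = 0.0312), a call kept in 5 of 11 alternative settings. It passed the filter on 2 bulge arrays, both of cKO, and on 0 of the 8 others, so it was tested only because of bulge. Krt86, a type II shaft keratin, read 5.79, 6.25, 7.15 and 7.35 in HG and 4.37, 5.60, 4.56 and 4.37 in total keratinocytes. Its rise of 1.91 in HG (SE 0.47, adjusted p = 0.0251) was kept in 7 of 15 alternative settings, and it passed the filter on 2 HG arrays and 1 of the 8 others, so it was tested only through HG.

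Few inner root sheath and shaft keratins were called between fractions. Krt28, a type I keratin of the inner root sheath, read 8.21, 7.73, 13.42 and 9.58 in HG, 5.59, 5.46, 8.13 and 9.35 in bulge and 6.80, 6.84, 12.13 and 9.44 in total keratinocytes. Within each condition HG was above bulge, by 2.60 in the fit (SE 0.63, adjusted p = 0.0205). Bulge lay 1.67 below total keratinocytes (SE 0.57, adjusted p = 0.0493), a call kept in 2 of 16 alternative settings. Krt35, a type I keratin of the matrix and lower shaft, read 8.33, 7.25, 13.75 and 9.55 in HG, 5.63, 4.37, 7.13 and 7.81 in bulge and 5.0, 5.88, 12.34 and 9.48 in total keratinocytes. It was 3.49 higher in HG than in bulge (SE 0.66, adjusted p = 0.00656). The Krt28 call between HG and bulge was kept in 7 of 13 alternative settings and that of Krt35 in 10 of 13. The other 10 inner root sheath and type I shaft keratins tested, with fitted differences from 0.13 to 2.52, were not called. Of these, Krt33a, Krt33b, Krt36 and Krt73 were tested only through HG, in which they are higher. Of the 6 inner root sheath keratins tested on 12 arrays, 6 were higher in HG than in bulge in Het of set 2. In cKO of set 2, 1 was higher and 4 lower (median -0.78). Krt26, among the 6, passed the filter only on the Het HG and Het total keratinocyte arrays of set 2. It was at the floor on the other 10 arrays, so its place in the Het count was fixed by the filter.

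Set 2 carried more transcript of 5 inner root sheath keratins than set 1. Over all 12 arrays, with each fraction of each genotype as a pair, 7 of 39 tested keratins rose in set 2 and 0 fell (17.9% of the keratins higher). This comparison was added after the values had been seen, and of the 39 keratins 11, with 3 of the 7 called, passed the filter only through the set in which they are higher. With no filter the count was 0. The background was 2.0% of 12749 genes higher and 3.1% lower. The 7 were the inner root sheath keratins Krt25, Krt27, Krt28, Krt71 and Krt73, the shaft keratin Krt35 and the companion layer keratin Krt75. Each was higher in set 2 in 6 of 6 pairs. In RefSeq order Krt25, Krt27 and Krt28 lie in one run on chromosome 11 with Krt26 between them, and Krt71 and Krt73 in another on chromosome 15 with Krt72 between them. Krt24, the next member on the other side of Krt25, did not share the pattern, with a difference between sets of -0.10 (95% interval -0.84 to 0.64).

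The proximal promoters of these inner root sheath genes are shown because the genes moved together, with that of the neighbouring bulge keratin Krt24 beside them. Each is the run of 100 bases before the RefSeq start site on build GRCm38.p6, 5′ to 3′ on the strand of the gene, which is the minus strand for all 6. Capitals mark matches to TATAAA or CTTTGA on either strand, the letters of a TATA box and of a LEF/TCF element.
Krt25 (chr11:99322952-99323051): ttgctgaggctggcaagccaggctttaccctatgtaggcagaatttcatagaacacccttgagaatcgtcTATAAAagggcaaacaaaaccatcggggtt
Krt27 (chr11:99351119-99351218): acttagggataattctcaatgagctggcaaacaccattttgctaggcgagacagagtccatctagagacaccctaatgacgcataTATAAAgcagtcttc
Krt28 (chr11:99374904-99375003): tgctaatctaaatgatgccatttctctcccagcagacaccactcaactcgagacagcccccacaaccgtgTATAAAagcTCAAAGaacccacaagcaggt
Krt71 (chr15:101743098-101743197): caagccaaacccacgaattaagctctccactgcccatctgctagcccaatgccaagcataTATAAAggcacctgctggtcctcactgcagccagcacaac
Krt73 (chr15:101802361-101802460): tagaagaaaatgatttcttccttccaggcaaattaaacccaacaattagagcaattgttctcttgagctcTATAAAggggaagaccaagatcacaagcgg
Krt24 (chr11:99285263-99285362): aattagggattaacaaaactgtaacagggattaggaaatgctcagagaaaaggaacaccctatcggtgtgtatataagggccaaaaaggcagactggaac

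All 5 promoters shown for inner root sheath genes hold TATAAA on the gene's own strand. It begins 30 bases before the start site in Krt25, Krt28 and Krt73, 15 before it in Krt27 and 40 before it in Krt71. Krt26, an inner root sheath gene not called between the sets, also holds it 30 bases before the start site. Krt72, which was not tested, has only a match on the other strand, 203 bases before the start site. The Krt24 window does not hold these exact letters, but reads tatataag from 30 bases before the start site. Only exact matches were searched, so other forms of a TATA box were not counted. In Krt28 the reverse complement of CTTTGA follows 21 bases before the start. Promoters were found for 32 of the 48 keratins, and over 250 bases before the start TATAAA was present in 16 of these 32 and CTTTGA in 7 (21.9%). Among all 32851 promoters of the same length in the table the shares were 12.4% and 13.8%. A match is a description of the letters and not a site of binding.

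Krt25 had the largest rise of any keratin. It read 6.58, 4.37, 13.64 and 9.47 in HG, 4.71, 4.37, 8.32 and 10.38 in bulge and 5.62, 4.37, 12.74 and 10.05 in total keratinocytes. The 3 cKO arrays of set 1 were at the floor, and no set 1 array reached the lowest set 2 array. The fitted difference was 5.76 (SE 0.40, adjusted p = 2.73e-04) and ranged from 4.33 to 6.36 over 17 alternative settings. Krt71 and Krt73 are type II inner root sheath keratins. Krt71 lay at 5.28, 5.97 and 6.56 (lowest, median and highest of 6 arrays) in set 1 and at 7.83, 8.66 and 11.09 in set 2. Krt73 lay at 4.37, 5.05 and 5.52 (lowest, median and highest of 6 arrays) in set 1 and at 6.39, 8.20 and 10.68 in set 2. Krt71 rose by 3.21 (SE 0.35, adjusted p = 0.00503) and Krt73 by 3.57 (SE 0.46, adjusted p = 0.0107). These 3 keratins were tested only through set 2, in which they are higher: Krt25 and Krt71 passed the filter on 6 arrays of set 2 and 1 of set 1, and Krt73 on 5 and 0.

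Krt27 and Krt28 overlapped between the sets, with HG in set 1 reaching above bulge in set 2. Krt27 lay at 5.51, 6.01 and 7.26 (lowest, median and highest of 6 arrays) in set 1 and at 6.56, 8.75 and 11.44 in set 2, and rose by 2.87 (SE 0.50, adjusted p = 0.0223). Krt28 lay at 5.46, 6.82 and 8.21 (lowest, median and highest of 6 arrays) in set 1 and at 8.13, 9.51 and 13.42 in set 2, and rose by 3.57 (SE 0.43, adjusted p = 0.00756). Krt35 lay at 4.37, 5.75 and 8.33 (lowest, median and highest of 6 arrays) in set 1 and at 7.13, 9.51 and 13.75 in set 2, and rose by 3.93 (SE 0.61, adjusted p = 0.02). Krt75 rose by 2.81 (SE 0.65, adjusted p = 0.0388), with 4.37, 4.37, 10.38 and 7.89 in HG and 4.88, 5.71, 9.19 and 7.92 in total keratinocytes. In bulge its level was already 8.38 and 8.21 in set 1. The Krt75 call was kept in 5 of 17 alternative settings, those of Krt25 and Krt71 in 16 of 17. Without the pair of Het total keratinocyte arrays 4 keratins were called. Without the 4 bulge arrays 2 keratins were called, without the 4 total keratinocyte arrays 3, and without the 4 HG arrays 6.

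**Figure D4:**
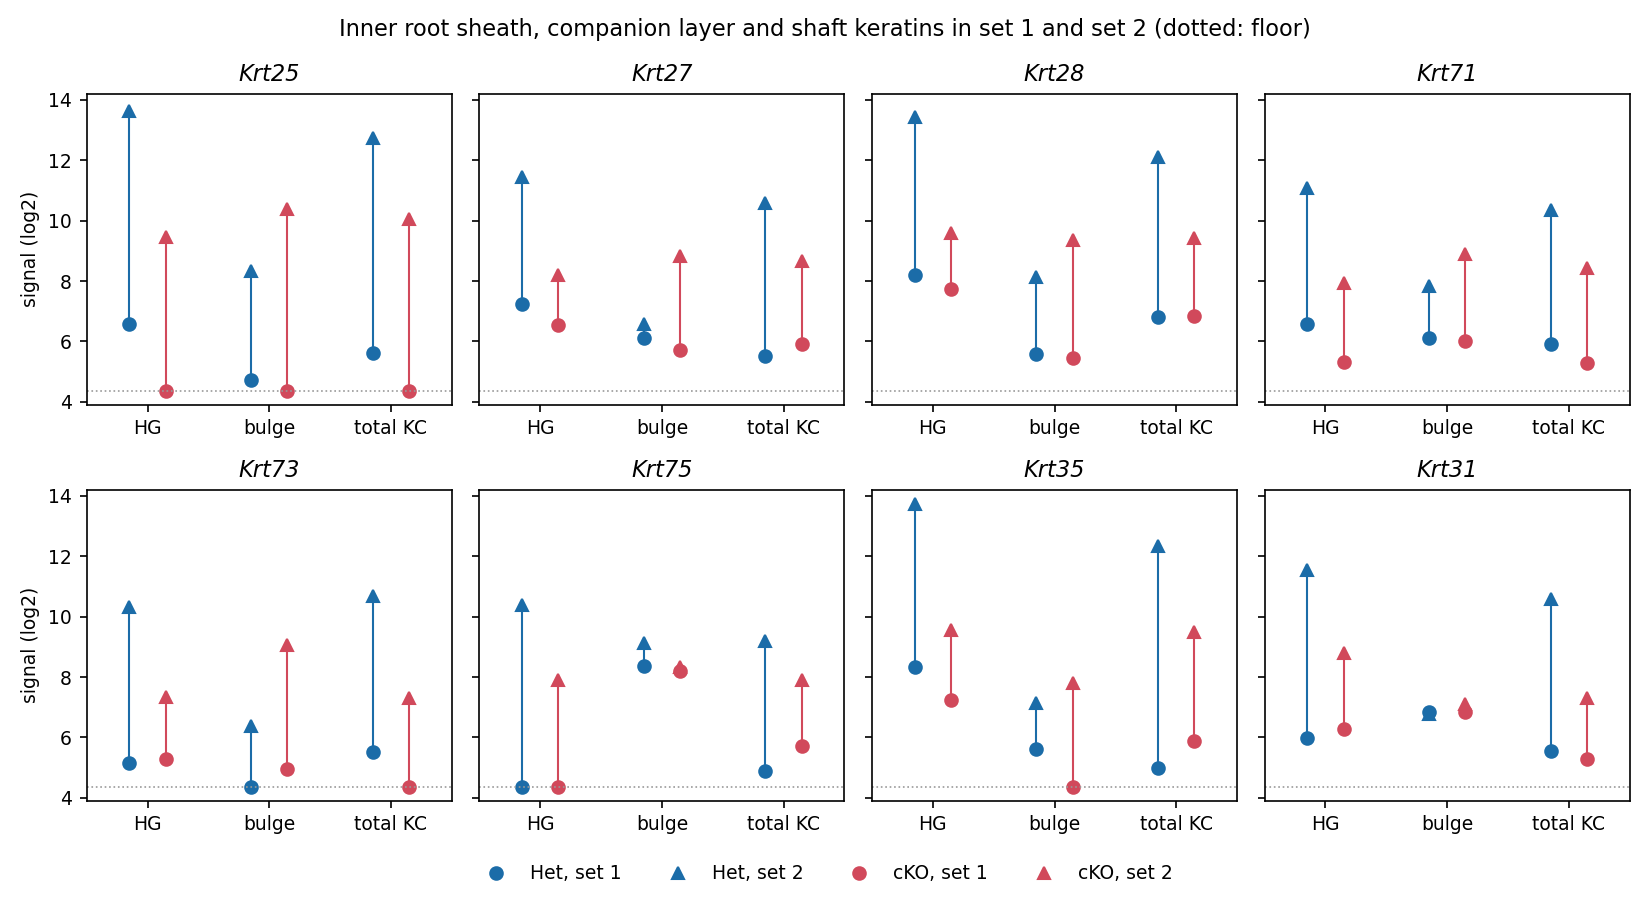
Log2 signal (y axis) of 8 inner root sheath, companion layer and shaft keratins in HG, bulge and total keratinocytes (KC, x axis), with circles for set 1 and triangles for set 2 joined by a line, in blue for Het and red for cKO; the dotted line is the floor at 4.37, and panels are different probe sets. The triangles lie above the circles in every pair except Krt31 in Het bulge.

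The shaft keratins Krt31, Krt33a and Krt34 had differences of 2.56, 2.65 and 2.00 between the sets, which missed the threshold (adjusted p = 0.0541, 0.0797 and 0.0648). Krt33a and Krt34 each passed the filter on 4 of 6 arrays of set 2 and 1 of 6 of set 1, so they were tested only through set 2. The values of Krt31, Krt33a and Krt34 were uneven across arrays. Krt31, a type I keratin of the shaft cortex, read 5.97, 6.29, 11.55 and 8.81 in HG, 6.83, 6.83, 6.77 and 7.11 in bulge and 5.54, 5.30, 10.60 and 7.30 in total keratinocytes, so that it was high on the Het arrays of set 2 outside bulge and lay between 6.77 and 7.11 in bulge. Krt32, the shaft keratin of the cuticle, was instead lowest on the Het HG array of set 2, at 8.10 against 9.24 to 10.47 on the other arrays. Among genes outside the family listed for structures of the hair follicle, 2 of 5 tested rose in set 2 over all arrays. They were S100a3, by 3.51 (adjusted p = 0.0273), and the inner root sheath protein gene Tchh, by 1.96 (adjusted p = 0.0309). Over all genes tested, 2.0% were higher and 3.1% lower in set 2. Padi3, among the 5 but not called, passed the filter only on the Het HG and Het total keratinocyte arrays of set 2. It was thus tested only through set 2. Among markers of other cells 5 of 11 fibroblast genes and 3 of 12 epidermal differentiation genes were lower in set 2. Their part in the result was not tested. Of 10 regulators of the hair lineages 1 rose, against 2.0% of all genes. This was Dlx3, by 2.42 (adjusted p = 0.0415).

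Within the stem cell fractions of each genotype, the set comparison had fewer arrays. In Het, which the labels call quiescent in set 1 and activated in set 2, 1 of 37 keratins was called. This was Krt77, which fell by 2.09 (SE 0.34, adjusted p = 0.035), where 0.643% of 12589 genes were lower and 0.0635% higher. The call was kept in 5 of 16 alternative settings. At an unadjusted p under 0.05, 18 of 37 keratins (48.6%) passed, against 16.8% of all genes, but 12 of the 37 had entered the test only through the set in which they are higher. The 5 inner root sheath keratins tested had differences from 2.31 to 5.34 and the 6 suprabasal keratins from -2.09 to -1.14. These are averages over HG and bulge, which serve as the 2 observations of a condition. Krt80 went from 11.71 to 9.15 in HG but from 13.08 to 13.27 in bulge. The other suprabasal keratins were lower in set 2 in both fractions, Krt2 in bulge only from 5.32 to 5.22. The count of 1 was 25 without the Het bulge array of set 2 and 4 without the Het HG array of set 2, where the lone array left in that condition is assumed to vary like the others. It was 0 without either set 1 array of Het or any 1 of the 4 cKO arrays. On all 12 arrays with fraction as a term Krt77 was no longer called and 9 other keratins were (Krt25, Krt27, Krt28, Krt31, Krt35, Krt71, Krt73, Krt75 and Krt78).

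In cKO, called quiescent in set 1 and aberrantly quiescent in set 2, limma called 0 of 37 keratins and 0.0% of all genes, and 13 keratins (35.1%) passed an unadjusted p under 0.05 against 6.17% of genes, where 11 of the 37 had entered through their higher set. The inner root sheath keratins had differences from 2.38 to 5.55, and Krt25 differed by 5.55 (95% interval 2.91 to 8.18, adjusted p = 0.659), against 5.34 in Het (95% interval 2.70 to 7.97, adjusted p = 0.0881). Leaving out the Het HG array of set 2 gave a count of 8, and leaving out Het bulge of set 2 gave 10. The difference between the set effects of the genotypes was tested directly. It was past the threshold for 0 of 37 keratins and for 0.00794% of all genes, and 2 keratins (5.41%), Krt32 and Krt83, passed an unadjusted p under 0.05 against 7.28% of genes. For Krt25 it was 0.21 (95% interval -3.52 to 3.94), an interval wide enough to hold large differences either way. The count of keratins for this difference was 9 without the Het bulge array of set 2. The labelled state and the set cannot be told apart within a genotype.

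The genotypes were then compared over all fractions and sets. No keratin was called between cKO and Het by limma, and 0.0% of the 12749 genes were. At an unadjusted p under 0.05, 12 of 39 keratins (30.8%) passed, against 8.62% of genes, and 5 of the 39 (Krt26, Krt33b, Krt36, Krt86 and Krt222) had entered the test only through the genotype in which they are higher. The largest difference was that of Krt36, a type I shaft keratin, at -1.45 (SE 0.34, adjusted p = 0.349), lower in cKO in 6 of 6 pairs. It passed the filter on 4 Het arrays and 1 cKO array. It read 6.97, 4.37, 8.60 and 7.20 in HG, 6.15, 5.24, 6.50 and 4.37 in bulge and 6.04, 5.33, 7.23 and 6.26 in total keratinocytes. Its Het and cKO ranges overlapped. All 6 suprabasal keratins had positive differences, from 0.46 to 0.67, none past the threshold. The 5 inner root sheath keratins other than Krt26 had negative ones, from -1.43 to -0.60, also short of it. Krt77 was higher in cKO in 6 of 6 pairs, by 0.63 (95% interval 0.16 to 1.10, adjusted p = 0.519), and Krt10 in 6 of 6, by 0.46 (95% interval 0.05 to 0.87, adjusted p = 0.572). Without the pair that holds the total keratinocyte array rich in milk protein transcripts the count of keratins was also 0.

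**Figure D5:**
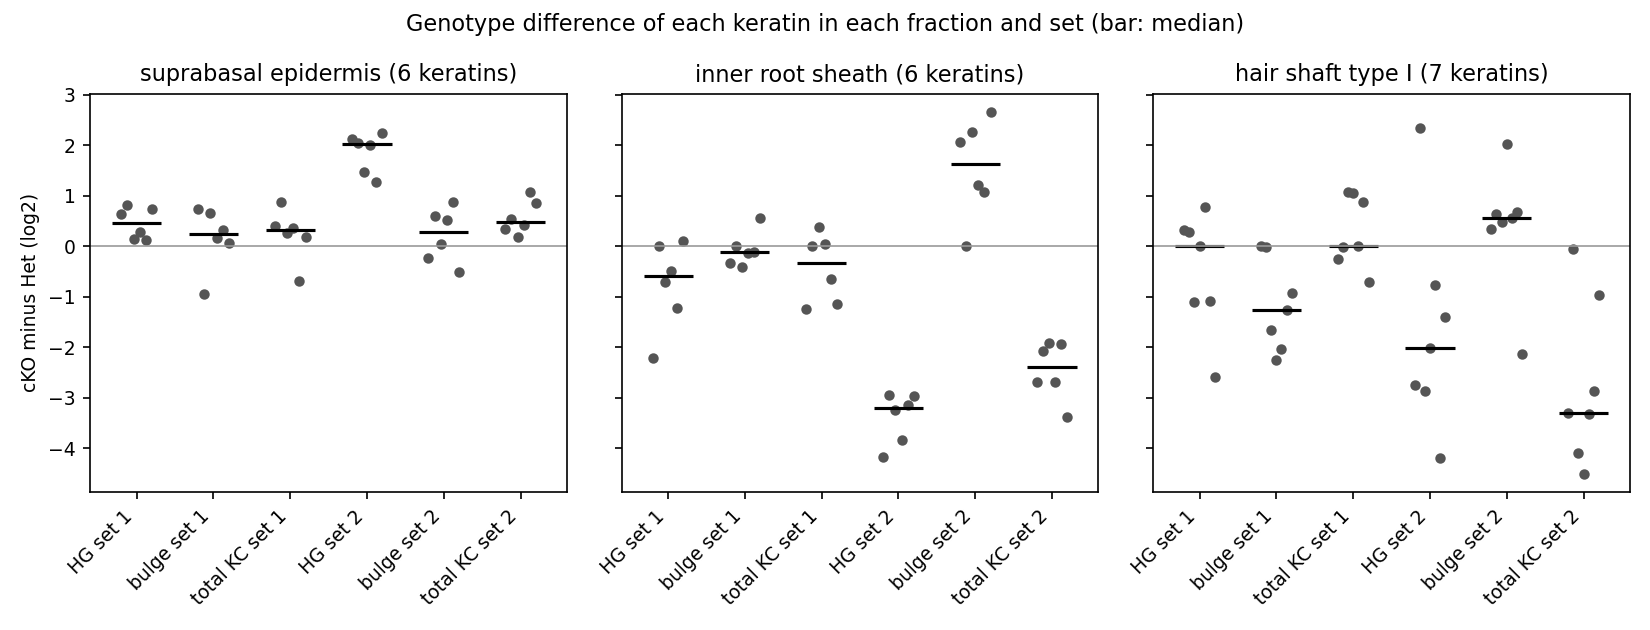
Difference in log2 signal between cKO and Het (y axis) in each of the 6 pairs of arrays of the same fraction and set (x axis), with 1 point per keratin and a bar at the median, for the suprabasal, inner root sheath and type I shaft keratins. The inner root sheath keratins other than Krt26 lie at or below -1.91 in HG and total keratinocytes of set 2. In bulge of set 2 they lie at or above 1.07. Krt26 is also plotted, but passed the filter only on the Het HG and Het total keratinocyte arrays of set 2. Its negative values there were thus fixed by the filter, and its 0 in bulge is the floor on both arrays.

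The genotype difference of the inner root sheath keratins was read within each pair of arrays, as values with no test. Krt26 is left out, since it passed the filter only on the Het HG and Het total keratinocyte arrays of set 2 and was at the floor on the other 10. In set 2 the other 5 were lower in cKO in HG (median -3.25, range -4.17 to -2.96), as they were in total keratinocytes (median -2.68, range -3.38 to -1.91). In bulge of set 2 these 5 were higher in cKO (median 2.06, range 1.07 to 2.67). Krt25 read 13.64 in Het and 9.47 in cKO HG. In bulge it read 8.32 in Het and 10.38 in cKO, and for total keratinocytes the values were 12.74 and 10.05. In set 1 the medians were -0.70, -0.13 and -0.65 in HG, bulge and total keratinocytes. Each of these values rests on 1 array per genotype and has no replicate check.

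The suprabasal keratins ran the other way in HG of set 2, where all 6 were higher in cKO (median 2.03, range 1.27 to 2.25). Their mean log2 signal there was 9.17 in Het and 11.04 in cKO, against 11.52 and 11.97 in HG of set 1. The basal keratins were also higher in cKO on that pair (median 1.35), and Krt5, Krt14 and Krt15 were lowest on the Het HG array of set 2. Hair shaft regulators outside the family had their highest mean on that same array, at 10.98 against 8.56 to 10.08 on the other arrays. Total keratinocytes of set 2 gave a median of 0.48 for the suprabasal keratins and bulge of set 2 one of 0.29.

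The proteins that anchor keratin filaments at desmosomes and hemidesmosomes were followed as the partners of the family. Of 18 listed genes 17 were tested. In HG 4 were lower and 0 higher than in total keratinocytes, against 5.72% and 5.11% of all genes, among them Jup, which encodes plakoglobin, at -1.41 (adjusted p = 8.82e-04), and Evpl, which encodes envoplakin, at -1.34 (adjusted p = 0.0132). In bulge 5 were lower and 2 higher, against 10.5% and 13.8% of all genes, with Pkp1, a plakophilin, at -1.36 (adjusted p = 6.08e-04) and Pkp2, another plakophilin, at 1.28 (adjusted p = 0.0322). Between HG and bulge 1 was higher and 1 lower, against 8.44% and 10.7% of all genes, and the difference was 1.64 (adjusted p = 1.24e-04) for Dsg2, a desmosomal cadherin, and -0.85 (adjusted p = 0.00661) for Jup. Between the genotypes 0 of 17 were called.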

How the data were processed

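Sorted cells of 12 samples were measured on 12 arrays. The deposited values are MAS5 signals, an intensity on a linear scale that the authors scaled to a trimmed mean of 500 (2% left out at each end, tested on the values), per the submitters' processing notes, where no version is given in the sources used here. Signals were floored at 20.7, the pooled 25th percentile, and log2 was taken. Median signals were 64.1 to 109 per array. The small number of arrays limits precision. A gene took its single-symbol probe set of highest mean, from 45101 probe sets of which 34945 had 1 symbol, 932 several and 9160 none, with 64 controls.

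Fits used limma 3.58.1 (lmFit, eBayes with trend) in R 4.3.3 and were tested on simulated data. HG, bulge and total keratinocytes were compared within genotype-by-set conditions as blocks, the genotypes within fraction-by-set pairs, and the sets in HG and bulge with fraction as a term. The pairs come from the labels' set numbers. The comparison of sets over all arrays was added after the values were seen. Every keratin past the threshold was named, the largest changes (up to 6 in each direction) with every array, and others by role. Members and lists were chosen with earlier results of these data known. Alternatives changed the normalization, floor, filter, probe set choice, trend and block, and left out arrays.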

Additional observations from a re-analysis of the deposited data

Results flagged for a closer look

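Among 22 named keratins in 3 fractions, 66 groups of 4 arrays were examined for an array far from the others, and 4 had one whose gap to its nearest neighbour, as a share of the range, exceeded Dixon's 95% critical value. Chance marks about 1 in 20 such groups. Krt8 was 7.76 on the Het bulge array of set 2 and 6.36 to 6.56 on the other bulge arrays. Krt86 was 5.60 on the cKO total keratinocyte array of set 1, the one rich in milk protein transcripts, and 4.37 to 4.56 on the others, of which 2 were at the floor. Krt4 was 6.34 on the Het bulge array of set 2 and Krt222 4.75 on the Het total keratinocyte array of set 1, each with the other 3 arrays of its fraction at the imposed floor. For these latter ones the gap fills the range by construction, and the critical value does not apply.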

How the results depend on the processing

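Counts of called keratins moved as follows, and the cause was not tested. For HG against bulge, 5 became 3 with the floor at the median signal, 2 with no filter, 3 without the trend and 3 with no replicate block, and lay between 3 and 8 when a condition was left out. For HG against total keratinocytes, 11 became 7 with the floor at the median, 2 with no filter and 7 with no replicate block, and 4 to 9 with arrays left out. For bulge against total keratinocytes, 14 became 8 with no filter, 9 with the filter at the 75th percentile and 11 with no replicate block, and 7 to 13 with arrays left out. For cKO against Het the count was 0 in all 14 alternatives, among them no replicate block. For sets in Het, 1 became 0 with the floor at the median, no filter, the mean of probe sets or no trend, 9 on all 12 arrays (0 of them in common with the 1), and 0 to 25 with an array left out. For sets in cKO, 0 became 1 on all 12 arrays and 0 to 10 with an array left out, and the interaction gave 0 to 9. For sets over all arrays, 7 became 4 with the floor at the median, 0 with no filter, 4 without the trend, 2 without the bulge arrays, 3 without the total keratinocyte arrays, and 4 to 7 with a pair left out. No difference of a named keratin that was called turned its sign. Values near the floor limit the dim keratins.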
